A study of Homo sapiens with 8 samples.

Results

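Peaks of 2 histone acetylation marks were examined at 10 genes of the circadian clock, of 19974 protein-coding genes on chromosomes 1 to 22 and X. They were CLOCK, NPAS2 and BMAL2 (written ARNTL2 in the authors' annotation), PER1, PER2, PER3, CRY1, CRY2, BHLHE40 and BHLHE41. Each gene was read as a window that ran from 10 kb before to 10 kb after the gene record of RefSeq GRCh38.p14, and every peak that reached into the window was taken, 867.6 kb in all. The genes were chosen by their place in the clock and by the H3K9ac and H4K16ac peaks of these same libraries, so their peaks are given as a description and no test is made on them.

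The cells were KGN, an established line from a human ovarian granulosa tumour, at passage 5 to 8. Cells given butyrate at 1 mM, which blocks histone deacetylases and is made by gut bacteria, were set beside cells given none, both for 6 h. In each condition, chromatin immunoprecipitation and sequencing (ChIP-seq) was done once with an antibody against histone H3 acetylated at lysine 9 (H3K9ac), once with an antibody against histone H4 acetylated at lysine 16 (H4K16ac) and once with a nonspecific immunoglobulin (IgG), beside input chromatin. The question was how butyrate changes the genomic pattern of both marks. There is 1 library per antibody and condition, so nothing below has a replicate check, and intervals cover the counting of peaks or fragments alone. Whether the cultures were synchronised, or at which clock phase they were collected, is not given in the sources used here.

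The circadian clock is a loop of transcription and repression that runs in most cell types. CLOCK or its relative NPAS2 pairs with BMAL1 or BMAL2, and the pair binds E-box sequences and activates, among many others, the PER and CRY genes. PER and CRY proteins then enter the nucleus and inhibit the pair, while BHLHE40 and BHLHE41 bind E-boxes themselves and repress the same targets. Granulosa cells have such a clock, which has been linked to ovulation and steroid synthesis. H3K9ac lies mainly at active promoters, and H4K16ac is a mark of open chromatin.

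The lists differ in length, and this bears on each count below. With butyrate the H3K9ac list held 79356 peaks and in control 22215, a ratio of 3.57, while the H4K16ac list held 33752 peaks with butyrate and 73586 in control, a ratio of 0.459. The IgG lists held 2 peaks with butyrate and 5 in control, and 0 of these lay in a clock window. H3K9ac peaks had a q of 0.05 or less in both conditions, but the H4K16ac lists ran up to a q of 0.621 with butyrate and 0.304 in control. The q is the share of false calls that MACS2 estimates down to a peak. Both H4K16ac lists ended at a p of 0.005, so the 2 marks were listed under unlike limits. The H3K9ac lists ended at a −log10 p of 2.97 with butyrate and 3.46 in control, a looser limit with butyrate. The depth implied by the values was 29.4 M reads with butyrate and 24.3 M reads in control for H3K9ac, and 23.9 M reads with butyrate and 17.4 M reads in control for H4K16ac, if MACS2 was run with a genome size of 2700000000. The peak names in both H4K16ac lists carry the letters k12, so H4K16ac below means the libraries so labelled. Of 8 granulosa markers, 5 had an H3K9ac promoter peak with butyrate and 3 in control. FOXL2, INHA and CYP11A1 had 1 in both, AMHR2 and WNT4 with butyrate alone, and FSHR, CYP19A1 and NR5A1 in neither. PTPRC, the pan-leukocyte marker, and DDX4, a germ cell marker, had none in either library, and ZP3, an oocyte marker, had one in both. In the windows of CD3E, PECAM1, CDH5, EPCAM and CDH1, markers of blood, endothelial and epithelial cells without a promoter entry, 0 to 17 H3K9ac peaks were listed with butyrate and 0 to 1 in control.

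Most of the clock genes hold letters that the clock reads in the 250 bases before their starts, and these stretches are shown because later results turn on whether peaks cover them. A search of both strands for the E-box CACGTG, the related E-prime box CACGTT, the D-box TTATGTAA and the cAMP response element TGACGTCA found an E-box or E-prime box at 7 of the 10 genes and in 7 of their 13 RefSeq promoters, against 10.6% of 35116 promoters. The E-prime box reads AACGTG on the other strand, and the same bases cannot match more than 1 of the 4 motifs. The E-box was at PER1, BHLHE40 and BHLHE41 (6.34% of all promoters held it), the E-prime box at CLOCK, PER2, CRY1 and CRY2 (4.55%), and the D-box at PER3 (0.834%). The cAMP response element was in none of the 13 windows (1.65% of all promoters). NPAS2 and BMAL2 had no match. Whole stretches are printed for BMAL2, PER1 and BHLHE41, where an H3K9ac promoter peak was listed with butyrate alone, and for CRY1, where the peak was split. That peak covered the printed bases at BMAL2 and stood upstream of them at PER1 and BHLHE41. They come from RefSeq GRCh38.p14 and read 5′ to 3′ on the gene's strand, with motifs in capitals (BMAL2 has none). They are BMAL2 at chr12:27332586-27332835 (plus strand), PER1 at chr17:8152405-8152654 (minus), BHLHE41 at chr12:26125038-26125287 (minus) and CRY1 at chr12:107093550-107093799 (minus).
BMAL2: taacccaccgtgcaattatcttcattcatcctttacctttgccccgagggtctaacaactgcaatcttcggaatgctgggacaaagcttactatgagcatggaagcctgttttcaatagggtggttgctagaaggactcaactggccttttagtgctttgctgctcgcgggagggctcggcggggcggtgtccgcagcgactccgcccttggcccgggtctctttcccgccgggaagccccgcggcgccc
PER1: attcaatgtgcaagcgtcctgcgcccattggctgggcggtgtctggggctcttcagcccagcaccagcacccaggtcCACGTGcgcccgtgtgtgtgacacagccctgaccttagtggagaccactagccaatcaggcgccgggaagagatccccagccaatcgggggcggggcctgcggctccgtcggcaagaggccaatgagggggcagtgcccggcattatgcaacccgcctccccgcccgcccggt
BHLHE41: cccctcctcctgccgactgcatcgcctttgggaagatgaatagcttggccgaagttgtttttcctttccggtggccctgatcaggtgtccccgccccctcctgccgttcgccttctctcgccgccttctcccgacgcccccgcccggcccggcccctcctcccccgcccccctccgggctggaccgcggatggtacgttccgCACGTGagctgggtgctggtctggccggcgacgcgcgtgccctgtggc
CRY1: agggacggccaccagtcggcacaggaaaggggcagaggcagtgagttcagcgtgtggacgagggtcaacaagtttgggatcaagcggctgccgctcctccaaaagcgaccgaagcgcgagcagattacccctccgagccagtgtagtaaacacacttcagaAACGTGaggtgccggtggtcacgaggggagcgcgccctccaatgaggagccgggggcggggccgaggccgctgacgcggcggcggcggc

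For the other 4 genes with an E-box or E-prime box, the 30 bases around it are shown for comparison of the flanks. The D-box site of PER3 is not printed. The 4 sites are CLOCK at chr4:55546102-55546131 (minus), PER2 at chr2:238288790-238288819 (minus), CRY2 at chr11:45847275-45847304 (plus) and BHLHE40 at chr3:4979187-4979216 (plus).
CLOCK: tcaccactcgggCACGTTtggagcagcgcc
PER2: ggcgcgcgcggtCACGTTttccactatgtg
CRY2: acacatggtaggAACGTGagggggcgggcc
BHLHE40: tccaaCACGTGagactcatgtgatgaagcc

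With butyrate, H3K9ac lay at the promoter of each of the 10 clock genes, against 6 in control; over 15812 protein-coding genes with a RefSeq promoter entry it was 66.8% with butyrate and 58.6% in control. A promoter peak is one that reaches within 1 kb of a start. The 4 genes with a promoter peak in butyrate alone were NPAS2, BMAL2, PER1 and BHLHE41, and 0 genes had one in control alone. Over all these genes, 8.32% had a promoter peak in butyrate alone and 0.183% in control alone. Among the genes without a control promoter peak, 20.1% had one with butyrate, and all 4 such clock genes did. Across the windows, 69 H3K9ac peaks were listed with butyrate and 29 in control, a ratio of 2.38 (95% interval 1.52 to 3.81), where all gene windows together gave 2.91. They covered 57053 bp with butyrate and 22732 bp in control. The interval treats each peak as a separate count, though 28 of the 29 control peaks overlapped a butyrate peak. When the same number of top peaks was taken from each list the ratio was 1.1, with 32 peaks with butyrate and 29 in control.

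Of the 69 butyrate peaks, 44 (63.8%) overlapped no control peak by at least 1 bp and are called gained; over the whole list 77% were gained. Of the 29 control peaks 1 (3.45%) overlapped no butyrate peak and is called lost, against 7.64% of the whole list. The gained peaks were narrower and weaker than the shared ones, as they were over the whole list. Their median width was 502 bp and their median fold, the authors' ratio of summit pileup to local background, was 3.30, against 1058 bp and 5.70 for the 25 butyrate peaks that overlapped a control peak. Over the whole list the gained peaks had medians of 404 bp and a fold of 3.22, against 1279 bp and 5.39 for the shared peaks. By place, 22 gained peaks of the clock windows lay in gene bodies and 5 at promoters, while the 10 kb upstream held 6 and the 10 kb downstream 11. The number of H3K9ac peaks was higher with butyrate in 8 windows, equal in those of PER3 and BHLHE40 and lower in 0. Of all gene windows 62.3% had more and 4.17% fewer. At least 1 gained peak was found in 8 clock windows, against 65% of all windows, and at least 1 lost peak in 1, against 10.7%.

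**Figure D1:**
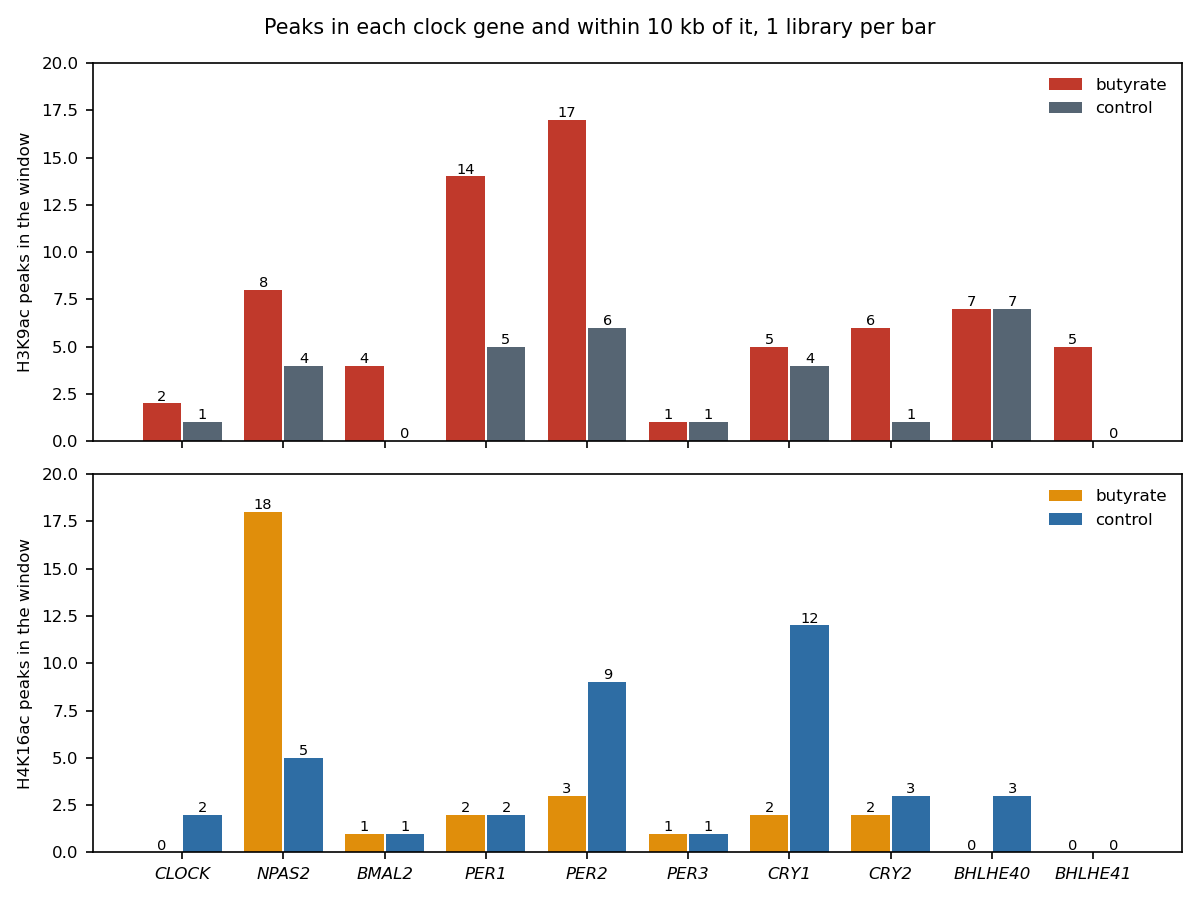
Number of peaks in each clock gene and within 10 kb of it (vertical axis), for H3K9ac above and H4K16ac below, with butyrate left of control for each gene; every bar is 1 library. PER2 (17 with butyrate, 6 in control) and PER1 (14 with butyrate, 5 in control) show the largest H3K9ac differences, and in H4K16ac NPAS2 (18 with butyrate, 5 in control) and CRY1 (2 with butyrate, 12 in control) stand at opposite ends.

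The 3 activator genes, whose products bind the E-box, differed among themselves. CLOCK, reported to acetylate histones itself, kept its promoter peak, which spanned chr4:55545983-55547625 with butyrate and chr4:55545558-55547430 in control. Its summit held 25 fragments with butyrate and 19 in control, counts that were recovered from the deposited fold and p values. A second peak of 518 bp, with a fold of 2.68, was listed inside the gene with butyrate alone. The E-prime box of CLOCK at −187 lay inside the promoter peak of both conditions.

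NPAS2, which can take the place of CLOCK, had a broad promoter peak of 2917 bp with butyrate at chr2:100818568-100821484 and none in control. Its summit of 38 fragments was the highest of the 10 promoters, its fold was 6.15 and its −log10 q was 16.5. A further 4 gained peaks lay inside the gene, with folds of 2.35 to 3.41. The other 3 butyrate peaks of this window and the 4 control peaks that they overlapped all lay downstream, in and around the ribosomal protein gene RPL31, so that the NPAS2 gene itself went without an H3K9ac peak in control. The authors' annotation starts NPAS2 inside the RefSeq gene, 150462 bp from the nearest RefSeq start, and by that start there was no promoter peak.

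BMAL2, a partner of CLOCK and NPAS2 and a relative of BMAL1, had 4 H3K9ac peaks with butyrate and 0 in control in its whole window. The promoter peak at chr12:27332425-27334092 was 1668 bp wide with 34 fragments at its summit, a fold of 7.54 and a −log10 q of 18.0. It covered the 250 bases printed above in full. The other 3 peaks stood 1408 to 2727 bp upstream of the start and had folds of 2.35 to 3.78. A window with no control peak and at least 1 butyrate peak was found at 12.9% of genes, and at BMAL2 and BHLHE41 among the clock genes.

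The PER genes, whose products carry the negative arm, included the 2 windows with the largest differences in H3K9ac peak number and 1 with none. In the 1 Mb on either side, peaks per 100 kb were 16.35 with butyrate and 6.35 in control at PER1. They were 6 with butyrate and 1.05 in control at PER2, and 6.75 with butyrate and 0.95 in control at PER3. The windows held 43.8 with butyrate and 15.7 in control at PER1, 22.4 with butyrate and 7.89 in control at PER2, and 1.24 in both at PER3. PER1, a gene that responds quickly to light and hormones, had 14 peaks with butyrate and 5 in control, and they covered 36.1% of its window with butyrate and 9.96% in control. Its promoter peak with butyrate lay at chr17:8152764-8154318, with 30 fragments at the summit and a fold of 5.99. The edge of this peak was 360 bp upstream of the start and the summit at −1708 bp, so that the 250 bases with the E-box at −173 were covered by 0 bp in both conditions. The 5 control peaks lay outside the gene, 4 upstream and 1 downstream. Of the upstream ones, 2 were at the start of VAMP2, a vesicle protein gene, and the other 2 in an intron that the authors' annotation assigns to AC129492.3. Of the 10 gained peaks, 5 lay downstream of PER1 and 2 inside it.

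PER2 had 17 H3K9ac peaks with butyrate and 6 in control. The promoter peak was kept, at chr2:238287783-238288785 with butyrate and chr2:238288095-238288816 in control, with 31 fragments at the summit with butyrate and 22 in control. The E-prime box at −197 lay just outside the butyrate peak and inside the control peak. All 6 control peaks overlapped butyrate peaks. Of the 11 gained peaks 10 lay inside the RefSeq gene record and had folds of up to 5.29. All but 1 of these were in introns 1 to 20 of PER2 in the authors' annotation, and the exception, at chr2:238290863-238291400, lay upstream of the start that the authors give. The remaining gained peak was near the start of HES6, downstream. The 12.6% of the window covered with butyrate compares with 3.13% in control.

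PER3, the third PER gene, had 1 peak in each condition. It stood upstream of the start, at chr1:7782930-7783848 with butyrate and chr1:7783277-7783735 in control. The summit held 20 fragments with butyrate and 14 in control. The gene body held 0 H3K9ac peaks in either condition, and the D-box at −177 was outside the peaks of both.

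The CRY genes encode strong repressors of the activator pair. CRY1 kept H3K9ac at its promoter but in another shape. With butyrate 3 narrow peaks of 417, 472 and 778 bp stood there, at chr12:107092358-107092774, chr12:107093051-107093522 and chr12:107094008-107094785. In control a single peak of 2123 bp at chr12:107092396-107094518 overlapped all 3. The 250 bases before the start, with the E-prime box at −89, fell in the gap between them and were covered by 0 bp with butyrate and 250 bp in control. The strongest summit had 26 fragments with butyrate and 18 in control, but its fold was lower with butyrate, 3.96 with butyrate and 6.15 in control, as was its −log10 q, 7.23 with butyrate and 8.97 in control. The local background at these summits was 5.82 fragments with butyrate and 2.09 in control, and its part in the split was not tested. CRY1 was the 1 clock gene whose window had less H3K9ac coverage with butyrate (3018 bp with butyrate, 3558 bp in control) and the 1 with a lost peak, which lay at MTERF2 downstream.

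CRY2 had 6 H3K9ac peaks with butyrate and 1 in control. The promoter peak was 1211 bp wide with butyrate and 630 bp in control, and its summit held 32 fragments with butyrate and 14 in control. The fold of this peak was 6.76 with butyrate and 4.05 in control, and its −log10 q 15.6 with butyrate and 4.24 in control. The E-prime box at −188 was outside the promoter peak in both conditions. Of the 5 gained peaks, 4 lay in introns 1 and 3 of the gene, and the strongest, with a fold of 5.11, was 278 bp wide near the start of MAPK8IP1 downstream.

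BHLHE40 and BHLHE41, also called DEC1 and DEC2, encode closely related repressors of E-box genes, and of these BHLHE40 was covered by H3K9ac in both conditions and BHLHE41 with butyrate alone. BHLHE40 had 7 peaks with butyrate and 7 in control, and this was the clock window with the most H3K9ac coverage (44.8% with butyrate, 27.9% in control). The 7 control peaks overlapped 4 wider butyrate peaks of 1801 to 2993 bp, which ran from upstream of the start past the end of the gene with short gaps. The other 3 butyrate peaks were gained and lay 8973 to 15478 bp past the start, downstream of the gene. The E-box at −245 lay outside the peaks of both conditions, in a gap between an upstream peak and the peak over the gene.

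BHLHE41 had 5 peaks with butyrate and 0 in control. The promoter peak at chr12:26125587-26126583 had 23 fragments and a fold of 4.58, and its edge was 550 bp upstream of the start. When both lists were limited to folds of 5 or more, this gain was no longer called. The 250 bases printed above, with the E-box at −48, were covered by 0 bp in both conditions. Inside the gene, 2 gained peaks also lay near a start of SSPN, the sarcospan gene, which reaches into this window. Their folds were 3.12 and 2.79.

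**Figure D2:**
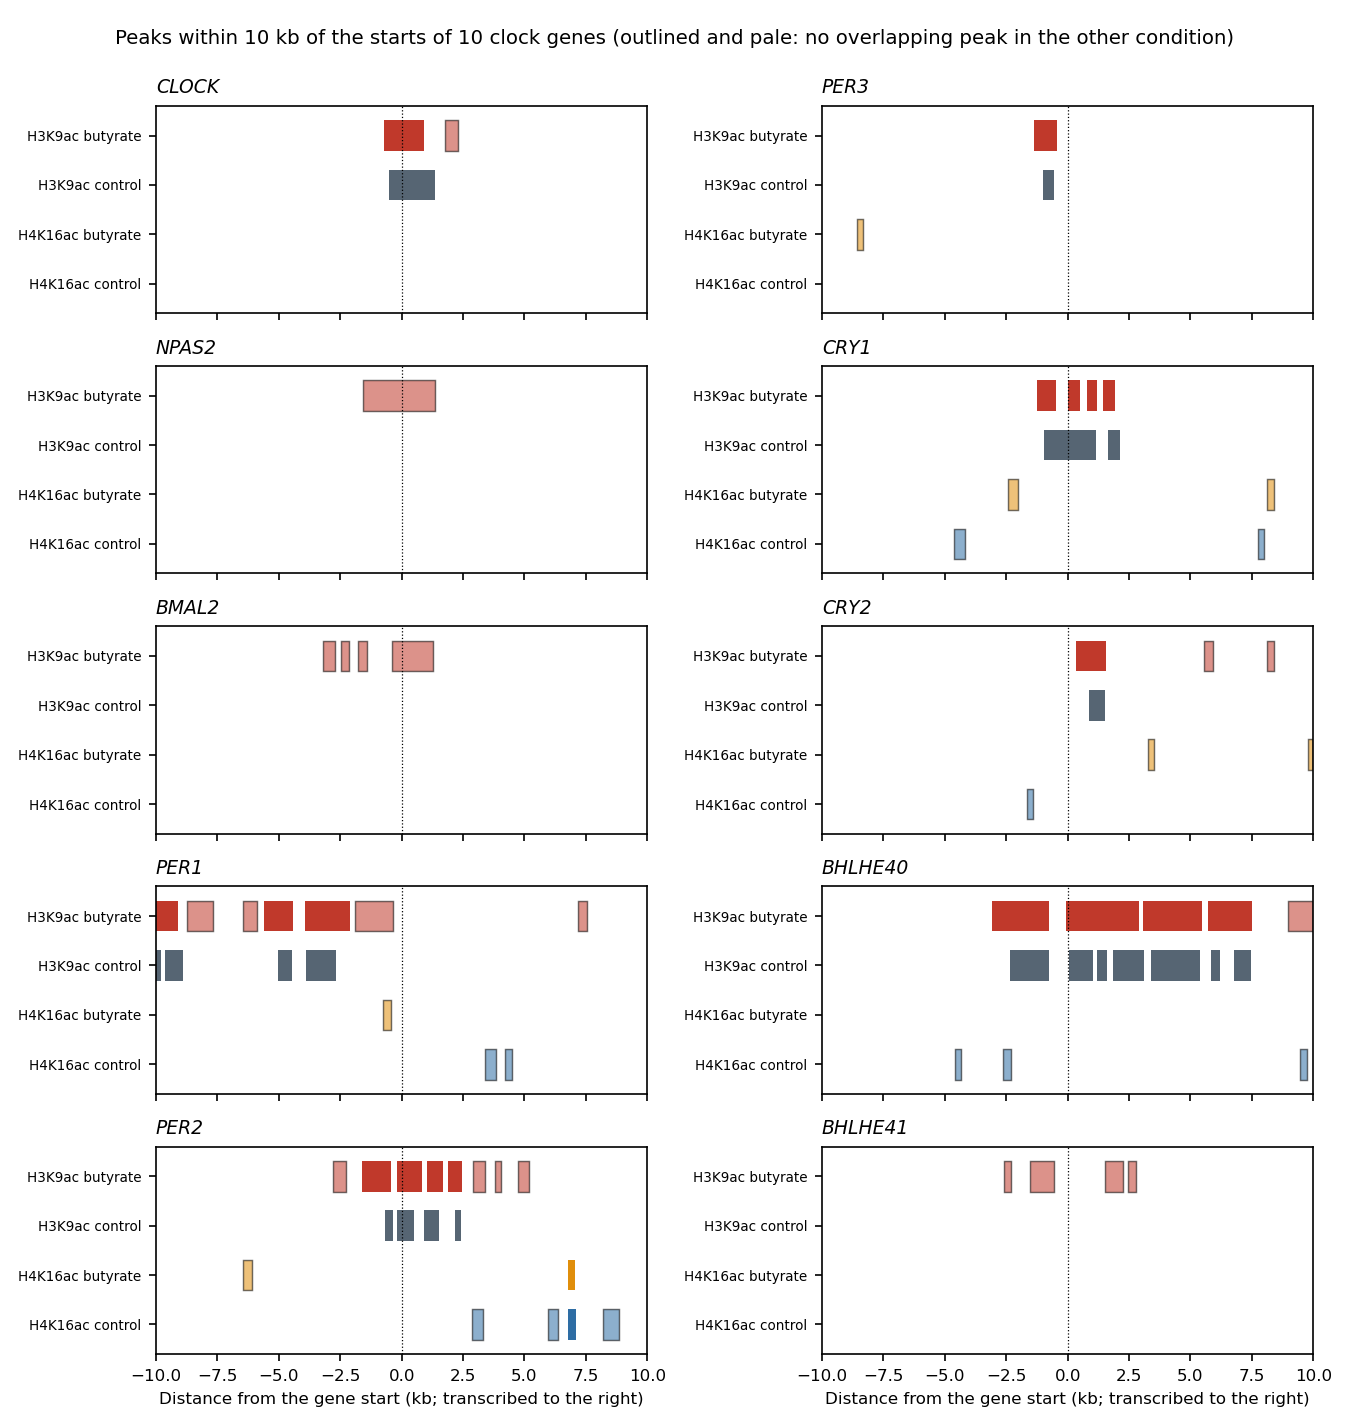
Positions of peaks within 10 kb of the start of each clock gene; the horizontal axis is distance from the start in kb with transcription to the right, and rows are H3K9ac with butyrate and control and H4K16ac with butyrate and control. Filled bars overlap a peak of the other condition and pale outlined bars do not: NPAS2, BMAL2 and BHLHE41 have pale H3K9ac bars alone, the CRY1 control peak stands where butyrate has 3, and the 1 H4K16ac bar within 1 kb of a start is at PER1.

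The height of the promoter peaks was compared after division by each library's background, taken as the 1st percentile of the local background and equal to 2.73 fragments with butyrate and 2.09 in control for H3K9ac. Over this background, the gained promoter peaks reached 13.9 times at NPAS2, 12.5 times at BMAL2, 10.99 times at PER1 and 8.43 times at BHLHE41. The division sets each library against its own background, and no outside reference was used here. At the 6 kept promoter peaks, no difference in height was told apart from counting error. The ratio of butyrate to control was 1.01 at CLOCK, 1.08 at PER2, 1.10 at PER3 and 1.11 at CRY1, and the largest was 1.75 at CRY2 (95% interval 0.909 to 3.55). BHLHE40 had 0.767 (0.442 to 1.33). All 6 intervals include 1, and the widest differences they leave possible are a ratio of 0.442 and one of 3.55. A summit is the maximum of its peak, which these intervals do not allow for. The 2 summits of a gene also stood at unlike places, so the ratios do not compare 1 site. From the nearest start they lay, butyrate first, at −478 and 15 bp at CLOCK, 224 and −645 bp at CRY1, and 183 and 1030 bp at CRY2. They lay at 284 and 801 bp at BHLHE40, and closer together at PER2 (35 and −7 bp) and PER3 (−578 and −741 bp).

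**Figure D3:**
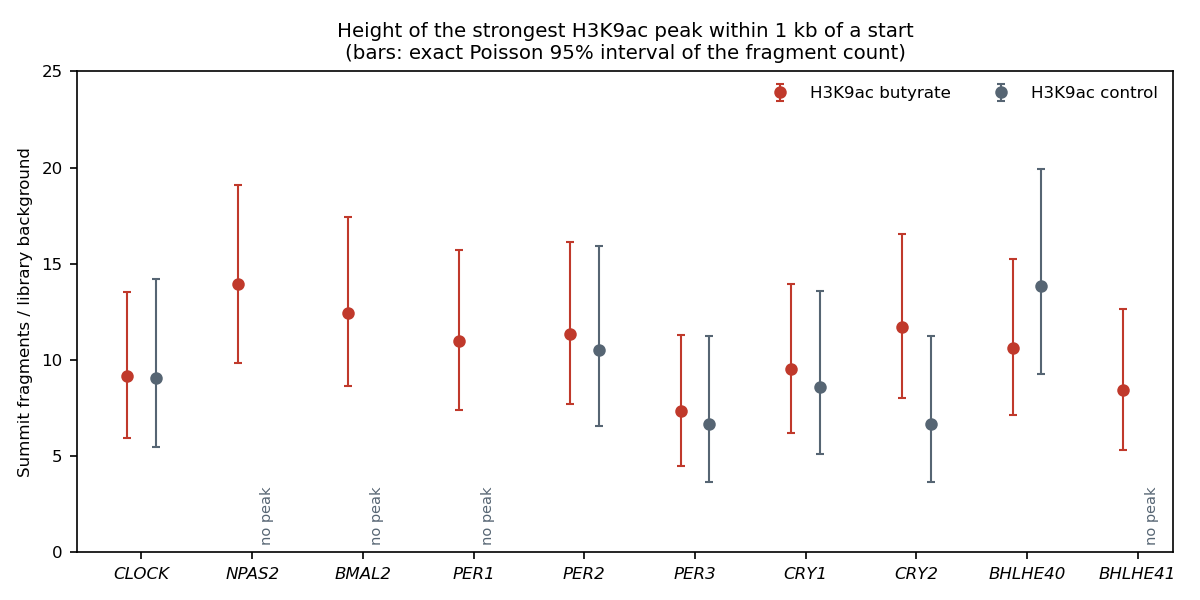
Height of the strongest H3K9ac promoter peak of each clock gene, as summit fragments divided by the library background (vertical axis), butyrate left of control; vertical lines are exact Poisson 95% intervals of the fragment count, 1 library per point. The 4 genes marked as having no control peak reach 8.43 to 13.9 with butyrate, and at the other 6 genes the intervals of both conditions overlap.

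In the libraries labelled H4K16ac, the clock windows held 29 peaks with butyrate and 38 in control, a ratio of 0.763 (95% interval 0.454 to 1.27), where all gene windows together gave 0.382. The interval treats each peak as a separate count and does not allow for peaks gathered in 1 gene. NPAS2 alone held 18 of the butyrate peaks, and without it the ratio was 0.333. Few peaks of either condition overlapped one of the other, here as in the whole lists. Of the butyrate peaks 28 (96.6%) were gained, against 86.6% of the whole list, and of the control peaks 37 (97.4%) were lost, against 93.8%. When the same number of top peaks was taken from each list the ratio turned to 1.45, with 29 peaks with butyrate and 20 in control. NPAS2 held 18 of these 29 butyrate peaks, and this ratio was not computed without NPAS2. The 1 shared peak lay in intron 1 of PER2, at chr2:238281542-238281846 with butyrate and chr2:238281512-238281853 in control, with a fold of 4.10 with butyrate and 2.61 in control. These peaks were weak, with −log10 q from 0.207 to 1.30 with butyrate and from 0.588 to 2.66 in control. At least 1 gained peak was found in 7 clock windows, against 48.3% of all windows, and at least 1 lost peak in 9, against 60.6%. At a q of 0.05 or less, 0 of the 29 butyrate peaks and 19 of the 38 control peaks were left. That limit stood at a stricter p with butyrate. A −log10 p of 6.07 gave a q of 0.0503 with butyrate, and one of 4.11 gave a q of 0.0439 in control. The median fold was 2.99 for the gained butyrate peaks and 3.09 for the lost control peaks.

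NPAS2 had 18 H4K16ac peaks with butyrate and 5 in control. At a q of 0.05 or less, 0 were left with butyrate and 1 in control, which lay downstream of the gene. Because that limit stood at a stricter p with butyrate, these counts do not compare the conditions on equal terms. The butyrate peaks were spread along the gene, 17 inside it and 1 downstream, and all 18 were gained. Their summits held 8 to 14 fragments, and the strongest, at chr2:100837854-100838093, had a −log10 q of 1.30, just short of a q of 0.05. The density was 9.09 per 100 kb with butyrate and 2.52 in control in the window, against 1.95 with butyrate and 2.70 in control in the 1 Mb on either side. Local background over library background had a median of 1.26 at the butyrate peaks and 1.44 at the control peaks of this window. Among 19974 genes, 12 (0.0601%) had at least 13 more peaks with butyrate than in control, NPAS2 among them. NPAS2 was the 1 clock gene with more H4K16ac peaks with butyrate, and 13.2% of all genes had more. Without it the clock windows held 11 peaks with butyrate and 33 in control, a ratio of 0.333.

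CRY1 had the opposite difference, with 2 H4K16ac peaks with butyrate and 12 in control. The control peaks lay mostly in the gene body (10 of 12), 7 of them had a q of 0.05 or less, and the strongest, in intron 4 at chr12:107016742-107017470, had a −log10 q of 2.25. The density was 1.64 per 100 kb with butyrate and 9.82 in control, against 1.65 with butyrate and 2.5 in control in the 1 Mb on either side. A difference of −10 or lower was found at 7.73% of genes. PER2 had 3 peaks with butyrate and 9 in control, CRY2 had 2 with butyrate and 3 in control, and BHLHE40 and CLOCK had 0 with butyrate and 3 and 2 in control. Thus 5 clock genes had fewer, as did 48.8% of all genes. The counts were equal in both conditions at PER1 (2 peaks), BMAL2 and PER3 (1 peak each) and BHLHE41 (0 peaks).

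**Figure D4:**
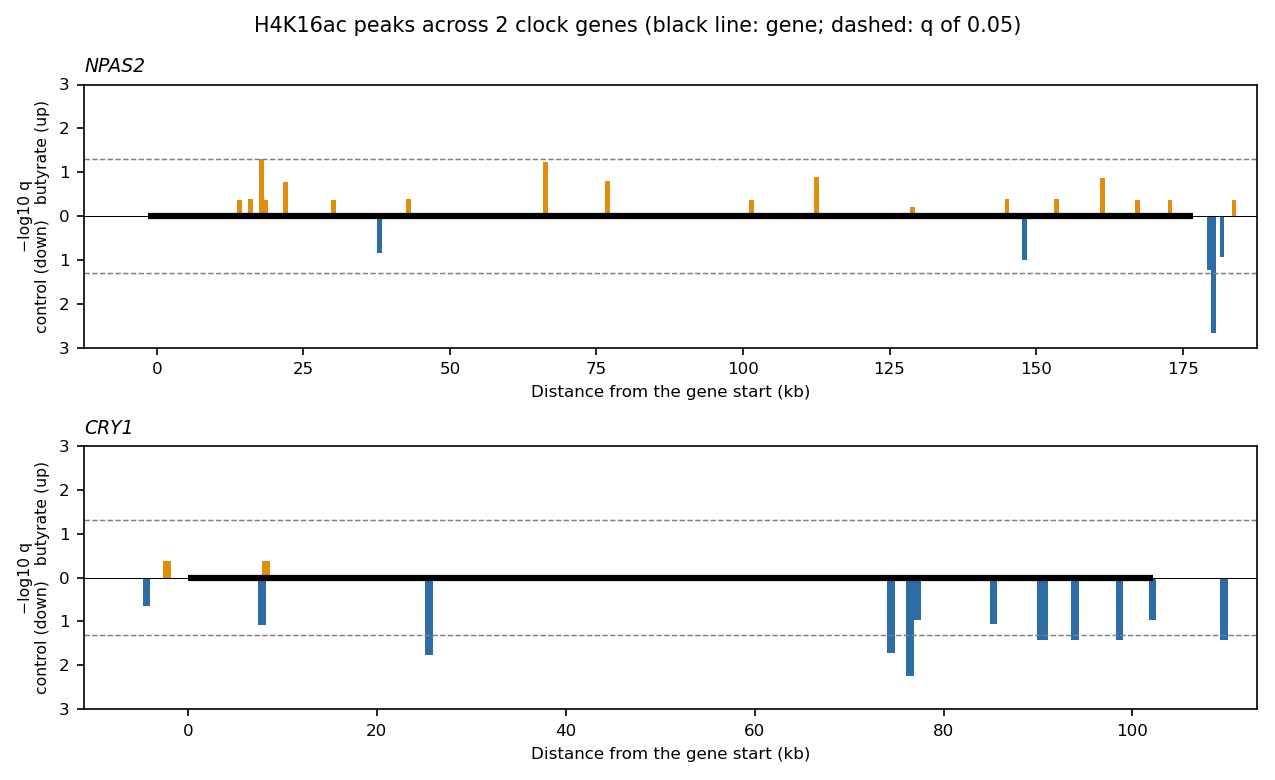
H4K16ac peaks along NPAS2 and CRY1; the horizontal axis is distance from the start in kb, the black line is the gene, bars upward are butyrate and bars downward control, their height is −log10 q and the dashed lines mark a q of 0.05. Butyrate peaks run along the whole of NPAS2 without passing the upper line, and 7 of the 12 control peaks at CRY1 pass the lower one. The upper line stands at a stricter p than the lower one.

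H4K16ac peaks were listed at few clock promoters. PER1 had a promoter peak with butyrate, at chr17:8152848-8153143, 296 bp wide with 8 fragments and a −log10 q of 0.361, and no clock gene had one in control. With promoters taken as 2.5 kb, 2 clock genes had a control promoter peak that was lost. The share over all genes was not computed at 2.5 kb, and the shares that follow are at 1 kb. Over all genes, 4.37% had an H4K16ac promoter peak with butyrate and 20% in control, 2.39% had one in butyrate alone and 18% in control alone. Of the genes without a control promoter peak, 2.99% had one with butyrate, and 1 of the 10 clock genes did. The PER1 peak lay inside the gained H3K9ac promoter peak. Within the same condition, 5 of the 69 H3K9ac peaks with butyrate (7.25%) and 2 of the 29 in control (6.90%) overlapped an H4K16ac peak, against 5.04% of the whole list with butyrate and 17.0% in control. Read from the other mark, 4 of the 29 H4K16ac peaks with butyrate (13.8%) and 2 of the 38 in control (5.26%) overlapped an H3K9ac peak, near the 11.9% of the whole list with butyrate and 5.60% in control.

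Among all gene windows, the H3K9ac differences of PER2 and PER1 were high but not extreme. A difference of at least 11 peaks, as at PER2, was found at 6.94% of genes and one of at least 9, as at PER1, at 10.7%. Windows differ in length (76.0 kb at PER2, 31.9 kb at PER1), and neither these shares nor those given for H4K16ac were corrected for it. The median over all genes was 1 for H3K9ac and 0 for H4K16ac. PER1 had the largest gain in covered share of the 10 windows. The 3 genes with the most similar shares in the 4 libraries, of 13041 with windows 0.5 to 2 times as long, were LKAAEAR1, CDKN1C and NTMT1, at Euclidean distances of 0.940, 1.15 and 1.30 percentage points.

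**Figure D5:**
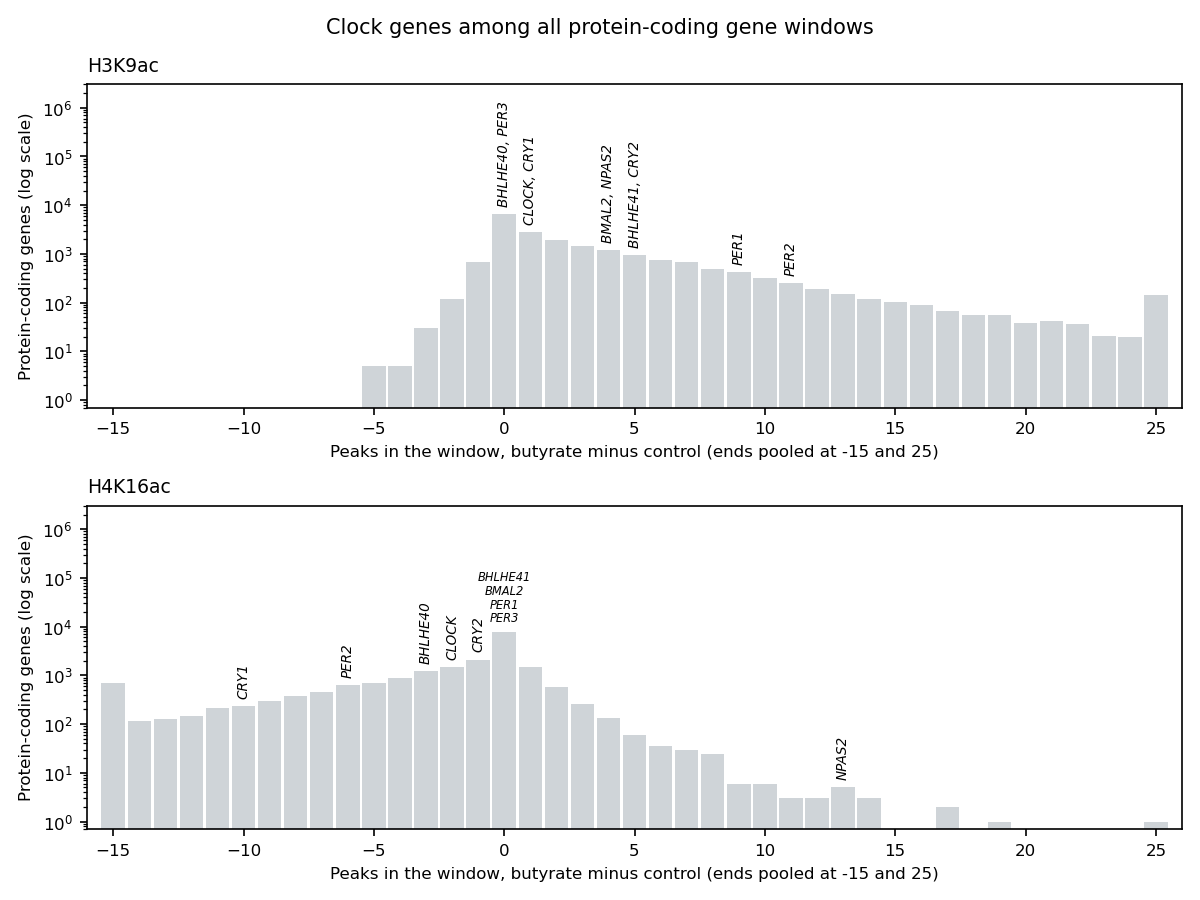
Distribution of the difference in peak number, butyrate minus control, over 19974 protein-coding gene windows (horizontal axis, ends pooled), for H3K9ac above and H4K16ac below, with the number of genes on a log scale. Names mark the clock genes: PER2 at 11 and PER1 at 9 lie in the upper H3K9ac tail, and NPAS2 at 13 and CRY1 at −10 lie on opposite sides in H4K16ac.

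Windows hold other genes, and the boundary at 10 kb decides some peaks. Without peaks within 1 kb of the start of another protein-coding gene, 60 H3K9ac peaks were left with butyrate and 22 in control, and the ratio was 2.73. Just inside the boundary, H3K9ac peaks with butyrate lay 9104 bp from PER1, 9172 bp from PER2 and 9592 bp from BHLHE40, and peaks in control 9260 bp from PER2 and 9791 bp from PER1. Just outside it lay a butyrate H3K9ac peak 10915 bp from BHLHE40, butyrate H4K16ac peaks 10120 bp from BHLHE40 and 10799 bp from PER1, and a control H4K16ac peak 10343 bp from CRY1.

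Further clock genes were read in the same way, for the 17 of a further list that had a RefSeq promoter entry. H3K9ac promoter peaks were present at 14 of them with butyrate and 13 in control, where all genes gave 66.8% with butyrate and 58.6% in control. HLF, a D-box activator, had one with butyrate alone, 415 bp wide with a fold of 3.87, and 0 were lost. Over all genes 8.32% were gained and 0.183% lost. BMAL1, the main partner of CLOCK, kept a promoter peak of 1239 bp with butyrate and 890 bp in control, and its window held 7 H3K9ac peaks with butyrate and 1 in control. NR1D1, the nuclear receptor that represses BMAL1, kept a peak of 1150 bp with butyrate and 1250 bp in control. The fold of this peak was 4.81 with butyrate and 8.09 in control, and its −log10 q was 8.82 with butyrate and 14.6 in control. The NR1D1 window held 13 peaks with butyrate and 1 in control. More H3K9ac peaks were listed with butyrate in 16 of the 17 windows, against 62.3% of all windows. RORB, a receptor that acts on the same sites as NR1D1, was the exception, named after its values were seen, with 0 in both. CSNK1D, a kinase of PER proteins, and BTRC, a ubiquitin ligase subunit, had no promoter entry. The window of CSNK1D held 19 H3K9ac peaks with butyrate and 4 in control, and that of BTRC held 4 with butyrate and 1 in control.

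H4K16ac peaks in this list were fewer with butyrate in 11 windows and more in 4 of the 17, where 48.8% of all windows had fewer and 13.2% more. BMAL1 had 1 with butyrate and 15 in control, and NR1D1 had 3 with butyrate and 5 in control. At promoters, NAMPT, an enzyme of NAD synthesis, had a peak with butyrate alone (−log10 q 0.533), and NR1D2 and TIMELESS had one in control alone (−log10 q 1.71 and 1.42). Over all genes 2.39% had such a promoter peak in butyrate alone and 18% in control alone. NR1D2 is the close relative of NR1D1, and TIMELESS is a replication protein that also binds PER and CRY.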

How the data were processed

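Peak lists of 6 ChIP-seq libraries were used, and the 2 input samples were not analysed here. Each list is 1 library's narrow peak call, per the file headers. CASAVA 1.7, MACS2 2.1.0 and the build hg19 (GRCh37) are named in the submitters' processing notes, and the aligner is not given in the sources used here. For 10963 genes the authors' start was compared with that of RefSeq GRCh38.p14, and the median distance was 38 bp, with 99.7% within 100 kb, so positions were read as GRCh38. The authors deposited a fold per summit (a ratio of pileup to local background), −log10 p and q values, and a score, which was not used.

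Rows sharing bases were merged (Python 3.11.15, pandas 2.3.3), and strand and starts came from RefSeq promoter entries and the gene record. Summit fragments and local background were recovered from the deposited fold and p, for at least 99.998% of rows, after the code was checked on simulated data. Intervals are exact 95% Poisson and binomial ones (SciPy 1.17.1) and cover counting error, with peaks or fragments taken as independent. The clock genes, the further clock list, the markers and the rules for named genes were chosen with earlier results of these data known. The rule for named genes takes the 10 clock genes, BMAL1, NR1D1, listed genes whose promoter call changed, and the 3 windows most like that of the gene with the largest gain in H3K9ac coverage. Alternatives limited peaks by q, fold, −log10 p or −log10 q, or took equal numbers of top peaks. Others changed the window, the promoter distance, the merging, the overlap and the gene starts. Some listed genes are not reported here. No p-value was computed, since each antibody and condition has 1 library.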

Additional observations from a re-analysis of the deposited data

How the results depend on the processing

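The H3K9ac promoter gain held best. It came to 3 to 5 genes under 8 alternatives, against 4 as reported, and BMAL2 and PER1 were gained in all of them. Of these alternatives, a q of 0.05 or less removed no H3K9ac peak, and leaving out NPAS2 takes that gene away by construction. A fold of at least 5 put CRY2 in the place of BHLHE41 and made CRY1 lost, and a −log10 q of at least 5 added CRY2. The authors' gene starts dropped NPAS2, whose start in their annotation lies 150462 bp from the nearest RefSeq start. They held no start for CLOCK and one for CRY1 that lies 43190 bp from the RefSeq start, so that alternative did not read these promoters. The numbers of peaks depended on the lists' lengths and limits. With equal numbers of top peaks, the H3K9ac ratio was 1.1 (2.38 as reported), the gained H3K9ac peaks 11 (44), the lost H4K16ac peaks 20 (37), the H3K9ac promoters gained in the further clock list 0 (1), and the H4K16ac ratio reversed to 1.45 (0.763). With the same limit on −log10 p in both lists, the H3K9ac ratio was 2.17, with 63 peaks with butyrate and 29 in control. The gained H3K9ac peaks were 38 at that limit, 13 at a fold of at least 5, 18 at a −log10 q of at least 5 and 25 in the genes alone. At a q of 0.05 or less the H4K16ac ratio was 0 and the lost peaks 19, a limit that stood at a stricter p with butyrate than in control. At a fold of at least 5, 0 H4K16ac peaks were left in both conditions, so the lost count was 0 and the ratio has no value. NPAS2 held 18 of the 29 butyrate H4K16ac peaks, also with equal numbers of top peaks, where the ratio without it was not computed. With all listed peaks but without NPAS2, the H4K16ac ratio was 0.333. With promoters of 2.5 kb, 2 clock genes (0) and 5 of the further clock genes (2) lost an H4K16ac promoter peak, with no share over all genes computed at 2.5 kb. Fewer peaks or wider promoters enter these alternatives by construction. Leaving out NPAS2 or peaks at other genes' starts, and the alternatives for the further clock genes, were chosen after seeing the data. No paired analysis was possible because each group has 1 library. The weakest H3K9ac peak of the whole control list had 8 summit fragments, and acetylation below that goes unlisted, so the absence of a peak is not the absence of the mark.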
